A study of Mus musculus with 6 samples.

Results

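Apln, Aplnr and Esm1 are 3 of the 32285 features counted in single cells of mouse lung. Apln encodes apelin, a secreted peptide, Aplnr its G protein-coupled receptor, and Esm1 a secreted proteoglycan, endocan, that is used as a marker of endothelial tip cells. The genes were chosen by name, and their shares of cells, levels and co-detection in endothelial cells were in view when they were chosen, so these values are given here as a description and carry no test. The cells of interest are the 15772 endothelial cells among 23745 cells used, of which 12869 were general capillary, 1477 aerocyte, 414 arterial and 1012 venous endothelial cells by their markers. Each class is named for the type its markers resemble.

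In the lung, general capillary cells act as the progenitor-like cells of the alveolar capillary bed, and aerocytes are the thin cells across which gas is exchanged. Aerocytes are known for apelin and general capillary cells for its receptor, so that ligand and receptor sit in neighbouring cells. In growing vessels, VEGF signalling induces Esm1, Apln and the Notch ligand Dll4 in leading tip cells, and Aplnr is known from the stalk cells behind them. Apelin receptor signalling through inhibitory G proteins leads to nitric oxide synthesis and to the shear-responsive factors Klf2 and Klf4.

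Control libraries (3) came from normal lungs and AML libraries (3) from lungs infiltrated by acute myeloid leukaemia with Trp53 R172H/Δ alleles. Liberase and DNaseI served to digest the lungs, according to the labels, and non-haematopoietic cells were sorted. In the AML libraries sorted GFP+ leukaemia cells made up 20% of the suspension beside 80% niche cells. Strain, age, the way the leukaemia was raised and the number of animals per library are not given in the sources used here, and nothing says that the libraries came from separate animals. The p-values therefore cover the spread of these libraries alone, and that spread may be technical.

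Whole libraries held 19060359 to 46018541 UMIs (unique molecular identifiers, counts of captured transcripts), and general capillary cells had a median of 4339 to 8047 UMIs in the Controls and 2770.5 to 3999.5 in the AML libraries. Clusters were named by marker lists, so the presence of those markers is a description and no test of the names. Gpihbp1 was found in 89.9 to 94.5% of general capillary cells, Ednrb in 93.6 to 99.2% of aerocytes, Efnb2 in 80.3 to 100% of arterial cells and Slc6a2 in 86.6 to 99.1% of venous cells over the 6 libraries. Some other markers of the lists were found in fewer cells. Gja5 ranged from 16.0 to 95.2% of arterial cells and Kit from 48.95 to 83.1% of general capillary cells. Chst1 ranged from 51.3 to 77.4% of aerocytes and Selp from 14.6 to 59.2% of venous cells. No cluster could be named lymphatic endothelial. Pairs of libraries shared between 1 and 24 cell barcodes, at most 0.461% of the smaller library.

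Apln lies on chromosome X at 48025146 to 48034853 (minus strand), Aplnr on chromosome 2 at 85136225 to 85139923 (plus strand) and Esm1 on chromosome 13 at 113209659 to 113218098 (plus strand), in mm10 with GENCODE M21. The bases just before the start of a member are shown where a promoter was available. RefSeq's table for GRCm38.p6 held a promoter for 2 of the 3 members, Apln and Esm1. The stretches below are the 250 bases before each start, 5′ to 3′ on the strand of the gene, chrX:48034854-48035103 (minus strand) and chr13:113209409-113209658 (plus strand). Capitals mark a match to the hypoxia response core in the form GCGTG.
Apln: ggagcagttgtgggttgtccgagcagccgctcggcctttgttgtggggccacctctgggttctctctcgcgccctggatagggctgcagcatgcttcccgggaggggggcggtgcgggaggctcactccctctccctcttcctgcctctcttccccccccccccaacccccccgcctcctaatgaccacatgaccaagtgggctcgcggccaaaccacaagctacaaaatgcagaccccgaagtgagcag
Esm1: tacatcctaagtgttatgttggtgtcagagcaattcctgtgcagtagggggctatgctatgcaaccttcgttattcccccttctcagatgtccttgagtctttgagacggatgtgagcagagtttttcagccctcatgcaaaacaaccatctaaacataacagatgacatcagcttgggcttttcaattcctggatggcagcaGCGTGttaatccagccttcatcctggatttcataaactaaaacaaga
Both strands were searched for ACGTG and GCGTG (forms of the hypoxia response core), TGANTCA (AP-1) and CCGGAA (an ETS core), which do not contain one another. The Esm1 stretch held 1 match, a GCGTG that begins 47 bases before the start, and the Apln stretch held none. Over 32851 promoters of the same length, 28.2% held GCGTG, 16.6% ACGTG, 6.75% TGANTCA and 12.0% CCGGAA on either strand. The Esm1 stretch was 44.0% G and C and the Apln stretch 65.2%.

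Apln, the ligand, was chiefly an aerocyte transcript. In the Control libraries aerocytes gave 78.1 to 85.4% of all Apln UMIs and general capillary cells 12.2 to 13.0%. In AML 1, 2 and 3 aerocytes gave 87.8, 65.8 and 75.5%. The level of Apln in aerocytes, in CPM (counts-per-million, the UMIs of a gene scaled by the UMIs of the summed cells of the class), was 341, 379 and 606 in Control 1, 2 and 3, and 162, 67.7 and 55.3 in AML 1, 2 and 3. Every AML library lay below every Control, and AML 1 was the highest of the AML libraries. The mean was 442 ± 143 (SD, n = 3) in the Controls and 94.99 ± 58.3 (SD, n = 3) in AML, a log2 difference of -2.20 ± 0.39 (SE of the fit). Over all 8982 genes measured in aerocytes, 12.2% had all AML values below all Control values, and 22.8% had groups that did not overlap in either direction. Markers moved with the group in this class. The aerocyte markers summed to 12003 to 15170 CPM in the Controls and 8496 to 11574 in AML, and alveolar type 1 markers to 1463 to 2417 and 2685 to 2967, neither with overlap. Their part in the Apln difference was not tested.

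General capillary cells held Apln at a far lower level than aerocytes, at 11.0, 12.4 and 19.3 CPM in the Controls and 2.79, 2.81 and 2.51 in AML. The groups did not overlap, and the AML libraries lay closer together than the Controls. Among the 11698 genes measured in general capillary cells, 15.7% had all AML values below all Control values, as all 3 members had, and 30.7% did not overlap in either direction, so non-overlap is common in this class. The log2 difference was -2.39 ± 0.28 (SE), as large as in aerocytes within the errors; the difference between the classes was not tested. Venous cells held 2.29 to 8.35 CPM in the Controls, from 3 to 11 UMIs per library, and at most 2 UMIs per library in AML. In arterial cells Apln was seen in 1 of 6 libraries, as 3 UMIs in Control 2. A count of 0 allowed up to 5.97 to 9.54 CPM there, so a low level was not detectable at this depth.

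**Figure D1:**
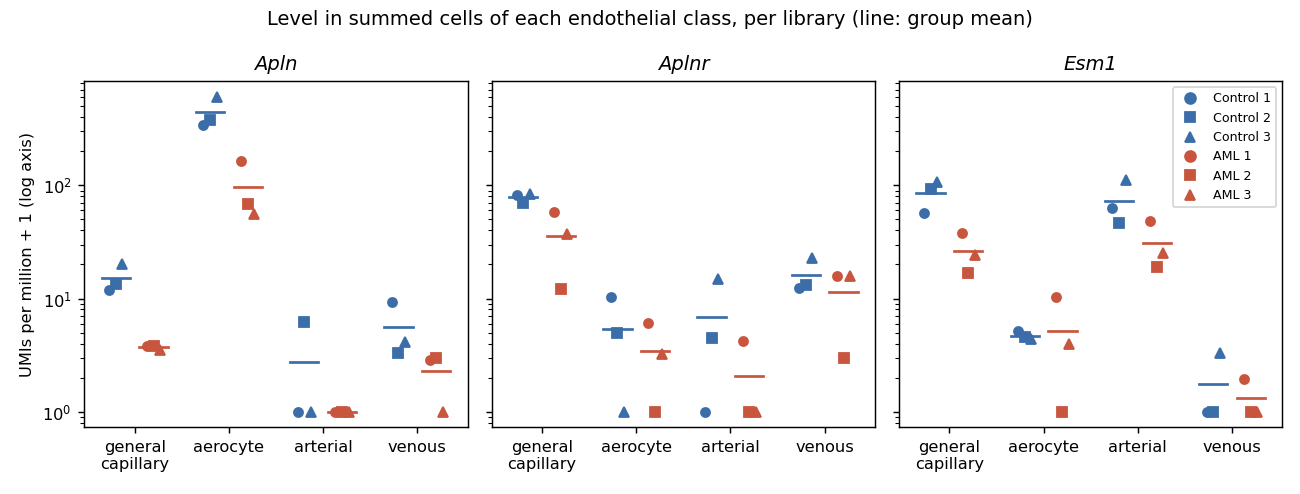
Level of Apln, Aplnr and Esm1 (log axis, CPM plus 1) in the summed cells of 4 endothelial classes, 1 point per library, with group means as lines. Apln is highest in aerocytes, Aplnr in general capillary cells, and Esm1 in general capillary and arterial cells, and the AML points lie below the Control points in these places except for Esm1 in arterial cells, where the groups overlap.

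Free RNA can place UMIs of an abundant transcript in other cells. The level of Apln was therefore set against other aerocyte genes. For every 100 UMIs of Ednrb, Fibin, Chst1 and Tbx2 together, aerocytes held 9.29, 6.91 and 12.5 Apln UMIs in Control 1, 2 and 3 and 3.90, 1.998 and 1.60 in AML 1, 2 and 3. General capillary cells held more Apln for the same 100 UMIs in each library, at 22.9, 15.02 and 34.6 in the Controls and 8.91, 6.35 and 5.69 in AML. In alveolar type 2 cells of Control 1 the ratio was 12.3, from 28 Apln UMIs. The 4 aerocyte genes themselves were also lower in AML, summing to 50.6, 81.1 and 55.5 CPM in general capillary cells of the Controls and 32.2, 41.9 and 43.9 in AML, without overlap. How much of the Apln in these cells was free RNA was not tested.

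Aplnr, the receptor, was a transcript of general capillary cells, which gave 85.9 to 95.1% of all Aplnr UMIs in the Controls and 91.9 to 98.0% in AML. Its level there was 81.6, 68.4 and 83.3 CPM in Control 1, 2 and 3, and 57.4, 11.2 and 36.3 in AML 1, 2 and 3. The AML libraries lay below the Controls but differed widely among themselves, with AML 2 lowest and AML 1 near the lowest Control. The mean was 77.8 ± 8.14 (SD, n = 3) in the Controls and 35.0 ± 23.1 (SD, n = 3) in AML, a log2 difference of -1.15 ± 0.49 (SE).

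Venous cells held the next level of Aplnr among the endothelial classes, at 11.4, 12.2 and 21.6 CPM in the Controls and 14.8, 1.98 and 14.8 in AML. The groups overlapped, and the log2 difference of -0.34 ± 0.46 (SE) turned to 0.0014 without Control 3. Among the 8760 genes measured in venous cells, 9.69% had all AML values below all Control values. In aerocytes Aplnr had 0 to 18 UMIs per library in the Controls and 0 to 7 in AML, too few to pass the filter on low counts. In arterial cells it had at most 6 UMIs in any library.

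Esm1 was divided between general capillary and arterial cells among the endothelial classes. In general capillary cells its level was 56.5, 91.0 and 105.5 CPM in Control 1, 2 and 3, and 36.8, 15.9 and 23.1 in AML 1, 2 and 3. Every AML value lay below every Control value. The log2 difference was -1.73 ± 0.31 (SE). Marker sums moved with the group in this class, none with overlap. Arterial markers were at 1210 to 1463 CPM in the Controls and 690 to 1137 in AML, venous markers at 258 to 282 and 475 to 689, and alveolar type 1 markers at 290 to 433 and 643 to 1432. Their part in the differences of the 3 members was not tested. In arterial cells the level was 61.5, 45.5 and 109.8 CPM in the Controls and 47.7, 17.9 and 24.3 in AML, from 22 to 47 UMIs per Control library and 9 to 15 per AML library. AML 1 lay just above the lowest Control, so the groups overlapped there, and the log2 difference was -1.33 ± 0.41 (SE). Of the 5933 genes measured in arterial cells, 9.34% had all AML values below all Control values. Markers of lymphatic endothelium moved with the group in the arterial class, with a summed level of 2394 to 3963 CPM in the Controls and 4691 to 8240 in AML, and their part in the result was not tested. Aerocytes and venous cells held little Esm1, with at most 13 and 3 UMIs per library.

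In both groups Apln was highest in aerocytes. In the Controls general capillary cells came next, and the ranges of venous and arterial cells overlapped. In AML the other classes could not be ranked, since a count of 0 in arterial cells allowed more than the general capillary level. Aplnr was highest in general capillary cells, then in venous cells by the mean. The venous range overlapped the arterial one in the Controls, and overlapped the general capillary, aerocyte and arterial ranges in AML. For Esm1, the general capillary range of 56.5 to 105.5 lay within the arterial range of 45.5 to 109.8 in the Controls, and the 2 ranges also overlapped in AML. These are ranges over libraries, with no test, since the classes were made from the same genes.

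Outside the endothelium, Esm1 stood out in ciliated airway cells. In cluster 19, the cluster of ciliated and airway cells present in every library, it reached 201.8, 166.1 and 240.4 CPM in Control 1, 2 and 3, and 251.6, 254.0 and 362.1 in AML 1, 2 and 3, from 23 to 59 cells per library. The differences between the groups were not tested in this cluster. Apln was at 0 in this cluster in all 6 libraries and Aplnr had at most 3.39 CPM. Pericytes held Apln at 48.1 and 114.6 CPM in the 2 Control libraries with at least 20 pericytes, and at 0 to 7.92 in AML. The pericyte values rest on 41 UMIs in the Controls and 3 in AML. The next-best marker score of the pericyte cluster was that of aerocytes, and the source of its Apln UMIs was not tested.

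Because cells of the Controls held more UMIs, shares of cells were compared after thinning each cell to 2000 UMIs. In aerocytes 52.7, 45.2 and 62.1% of cells had an Apln UMI in Control 1, 2 and 3, and 22.9, 6.77 and 10.2% in AML 1, 2 and 3. The unthinned shares were 78.1 to 87.1% and 16.0 to 39.6%. Thus both the share of cells and the level were lower in each AML library. Among cells with an Apln UMI, the mean number of such UMIs was 1.56 to 1.99 in the Controls and 1.30 to 1.35 in AML. Thinning left out 6.28 to 9.68% of Control aerocytes and 13.8 to 16.6% of AML aerocytes.

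In general capillary cells the thinned share with an Aplnr UMI was 13.8, 11.1 and 15.6% in the Controls and 10.4, 2.25 and 6.37% in AML. The exact binomial 95% intervals of Control 2 (9.82 to 12.6%) and AML 1 (9.10 to 11.8%) overlapped, while that of AML 2 ended at 3.04%. The share with an Esm1 UMI was 6.73, 6.30 and 7.92% in the Controls and 2.72, 2.09 and 2.71% in AML, with no overlap of groups or intervals. For Apln it was 1.86, 1.66 and 2.21% against 0.335, 0.440 and 0.201%. Unthinned, the Control and AML ranges were 24.2 to 38.4% and 3.83 to 17.5% for Aplnr, 9.56 to 12.4% and 2.81 to 3.19% for Esm1, and 4.89 to 6.77% and 0.280 to 0.996% for Apln. Thinning left out 11.6 to 15.3% of these cells in the Controls and 16.1 to 30.3% in AML. The arterial share with Esm1 was 9.52, 3.57 and 6.67% in the Controls and 3.17, 3.30 and 2.27% in AML, from 2 to 4 cells per library, so that a difference in share was not detectable there. The intervals cover counting error only.

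The background of free RNA was read in alveolar type 2 cells of the same libraries. In 4 of 6 libraries no such cell had a UMI of any of the 3 genes after thinning, and in AML 3 only 1 cell did, with Aplnr. Control 1 stood apart, with 3.11% for Apln, 2.59% for Aplnr and 9.84% for Esm1. In that library the alveolar type 2 share exceeded the general capillary share for Apln and Esm1, so those 2 shares of Control 1 are not above this background. Its low-depth alveolar type 2 cluster, of 218 cells with a median of 1683.5 UMIs, carried most of them. Without Control 1 the Control shares of general capillary cells were 1.66 and 2.21% for Apln and 6.30 and 7.92% for Esm1, and the log2 differences of level kept their sign. Another set of cells stood apart in Control 3. Cluster 12, with airway and haemoglobin genes among its leading genes, had 464 cells in Control 3 and 1 in AML 3. In Control 3 it held Apln at 43.6, Aplnr at 37.9 and Esm1 at 42.2 CPM, the Apln level above that of the general capillary cells of the library. The source of these UMIs was not tested. Without Control 3 the log2 differences in general capillary cells were -2.10 for Apln, -1.09 for Aplnr and -1.54 for Esm1.

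**Figure D2:**
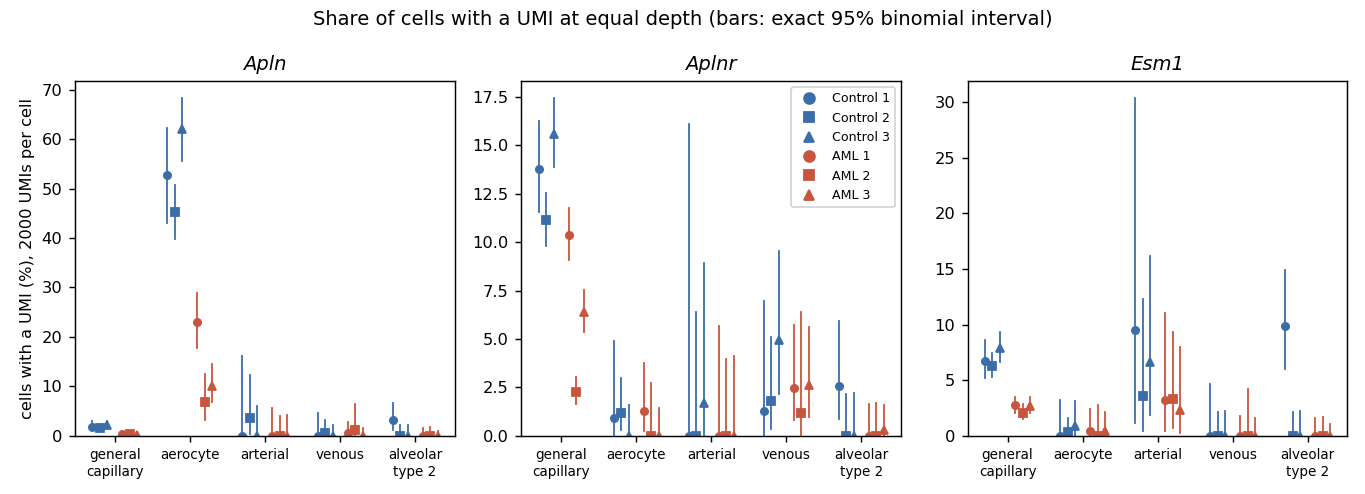
Percent of cells with a UMI of each gene after thinning to 2000 UMIs per cell, by class and library, with exact 95% binomial intervals, and alveolar type 2 cells as background. Apln in aerocytes lies at 45.2 to 62.1% in the Control libraries and at 6.77 to 22.9% in the AML libraries.

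A cell with an Esm1 UMI often had several, unlike a cell with Apln or Aplnr. Among thinned general capillary cells with the gene, Esm1 averaged 2.07, 2.91 and 2.76 UMIs in the Controls and 3.33, 2.05 and 1.76 in AML, and up to 37 in a single cell. Aplnr averaged 1.17 to 1.19 in the Controls and 1.07 to 1.12 in AML. Thus Esm1 UMIs were concentrated in few cells, and Aplnr UMIs were spread over more cells at about 1 each.

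Detection of Aplnr and Esm1 in the same cell was less frequent than independent detection within libraries gives. Of 10506 thinned general capillary cells, 993 had Aplnr, 469 had Esm1 and 33 had both, where 53.1 were expected, a ratio of 0.621. In Control 2 both were found in 14 cells with 14.8 expected, and in AML 2 in 0 cells with 0.856 expected. These libraries weigh little, though the observed count lay below the expected count in each of the 6. In the Controls it was 31 of 42.9 expected, and in AML 2 of 10.2 expected. Within clusters and libraries the ratio was 0.608. Apln and Esm1 met in 7 cells, with 6.60 expected, and Apln and Aplnr in 15, with 12.9 expected. In 1307 thinned aerocytes, 446 with Apln and 8 with Aplnr, no cell had both, where 3.02 were expected.

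The general capillary class was made of 5 clusters whose shares differed between the groups. Cluster 0 held 76.8, 70.7 and 75.4% of the class in Control 1, 2 and 3, and 13.6, 0.369 and 1.33% in AML 1, 2 and 3. Each AML library had most of its cells in a cluster of its own. Cluster 2 held 65.3% of the class in AML 1, cluster 3 held 78.7% in AML 2 and cluster 1 held 71.7% in AML 3, against at most 12.1, 0.104 and 0.575% in any Control. Such clusters may stand for a library and not for a state of the cells. Thus different clusters made up most of the class in the groups, and values over the class compare different mixtures of them.

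Esm1 went with cluster 0. Of the 469 thinned cells with Esm1, 340 were in cluster 0 and 53 in cluster 1. Clusters 3, 2 and 4 held 36, 28 and 12 of them. Of the 33 cells with both Esm1 and Aplnr, 31 were in cluster 0. These counts pool the groups, with 320 of the 469 cells from the Controls, and cluster 0 held 4172 of all 10506 thinned cells. In AML 2 and AML 3 cluster 0 held only 3 and 18 thinned cells, against 38 and 54 cells with Esm1 in the class. Most Esm1 cells of those libraries thus lay in other clusters. Within cluster 0 the Esm1 level was 62.3, 104.3 and 114.6 CPM in the Controls, 172.7 in AML 1 and 188.8 in AML 3. The value of AML 3 rests on 38 cells and 18 UMIs, and AML 2 had only 8 cells there. So within cluster 0 the AML libraries with at least 20 cells lay above the Controls, opposite to the class as a whole. In cluster 2 Esm1 was at most 3.71 CPM in the Controls, from 0, 5 and 0 UMIs in Control 1, 2 and 3. It was 8.71, 40.3 and 19.6 CPM in AML 1, 2 and 3, from 59, 7 and 12 UMIs. The AML values thus lay above those of Control 2 and Control 3 there. Control 1, with 13 cells and no Esm1 UMI, could not be ranked against AML in cluster 2. In cluster 4 the order was that of the class, with 32.003, 37.7 and 50.4 in the Controls and 24.4, 16.0 and 11.3 in AML. With cluster 0 left out, an alternative chosen after seeing the data, the log2 difference over the class was -0.59 instead of -1.73. The clusters were made from all genes, Esm1 included, so none of this is a test.

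**Figure D3:**
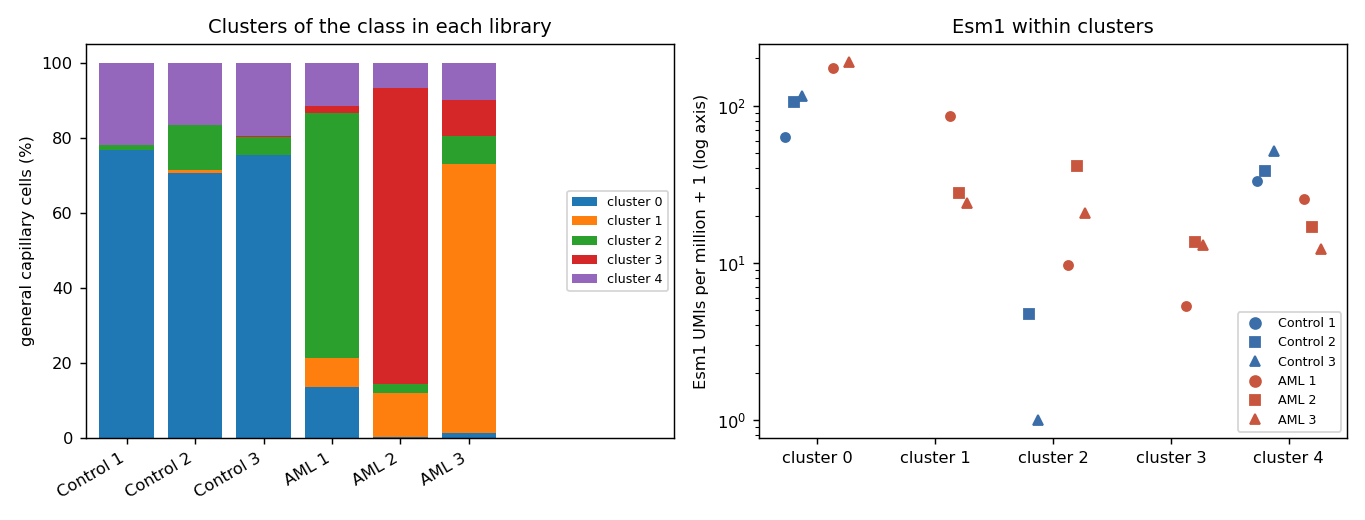
Left, percent of the general capillary cells of each library in each of 5 clusters. Right, Esm1 level (log axis, CPM plus 1) in each cluster, 1 point per library with at least 20 cells in it. Cluster 0 makes up 70.7 to 76.8% of the class in the Controls and 0.369 to 13.6% in AML, while its Esm1 level in AML 1 and AML 3 lies above the Controls.

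In cluster 0 Apln behaved otherwise. Its level there was 10.3, 11.4 and 18.1 CPM in the Controls, 2.27 in AML 1 (3 UMIs) and 0 in AML 2 and AML 3, which had few cells there. In cluster 2 it was 0, 4.46 and 0 CPM in the Controls and 2.51, 0 and 0 in AML. The groups overlapped in cluster 2, with at most 17 Apln UMIs in a library. In cluster 4 it was 30.3, 37.7 and 41.8 CPM in the Controls and 7.32, 5.33 and 0 in AML, a log2 difference of -3.16 ± 0.59 (SE). The Apln of cluster 4 per 100 UMIs of the 4 aerocyte genes was 17.0, 11.6 and 29.3 in the Controls and 6.52, 7.14 and 0 in AML, the last 3 from 3, 1 and 0 Apln UMIs. The 4 aerocyte genes summed to 178.5, 325.8 and 142.5 CPM there in the Controls and 112.3, 74.5 and 118.9 in AML, again without overlap. Cluster 4 had few UMIs per cell (median 1421), and its next-best marker score was that of platelets. Over the class, platelet markers summed to 54.3 to 90.8 CPM in the Controls and 20.7 to 24.1 in AML. Without cluster 4 the Apln difference over the class was -2.24. The Aplnr level in cluster 0 was 88.4, 67.5 and 84.1 CPM in the Controls and 68.2 in AML 1, within the Control range. In AML 3 it was 20.98 CPM, below the Controls, but from 38 cells and 2 UMIs, and AML 2 had only 8 cells there. The Aplnr difference in cluster 4 was -1.29 ± 0.34 (SE), where AML 2 had no Aplnr UMI.

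Few other genes of apelin signalling were called between the groups, as over all genes. Of 16 measured genes of a list of 18 beside the members, 1 passed in general capillary cells by edgeR's quasi-likelihood test at an adjusted p of 0.05, where 2.93% of all genes passed (343 of 11698). That gene was Nos3, the endothelial nitric oxide synthase, which rose from 23.8, 20.8 and 22.1 CPM in the Controls to 32.1, 37.4 and 47.8 in AML, 1.76-fold (edgeR adjusted p = 0.042). That call was lost on leaving out any 1 library other than AML 1, and without cluster 0. The list's median log2 change was 0.05, beside -0.0002 over all genes. At an unadjusted p under 0.05 by edgeR were 4 of its 16 measured genes and 2662 of all 11698. Apela, the second ligand of the receptor, had no UMI in any endothelial class. Prcp, a carboxypeptidase on the list, had 72.4 ± 9.73 CPM in the Controls and 44.5 ± 12.7 in AML (SD, n = 3; edgeR adjusted p = 0.096). The flow-responsive factor Klf2 had 1911 ± 274 and 2127 ± 436 CPM (edgeR adjusted p = 0.72). No gene of this list passed in aerocytes, arterial or venous cells by edgeR, with 2, 0 and 3 at an unadjusted p under 0.05; DESeq2 called 1 in aerocytes and 0 in the other classes.

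The other tip cell genes did not move one way. Of 25 measured genes in general capillary cells, 4 fell and 2 rose by edgeR, beside 1.8% of all genes that fell and 1.13% that rose. The median log2 change of the list was -0.0045. Cxcr4, a chemokine receptor, fell from 13.1, 15.1 and 20.7 CPM in the Controls to 3.72, 0.935 and 2.17 in AML, 7.03-fold (edgeR adjusted p = 0.013). Dll4, the Notch ligand of tip cells, fell from 120.8, 105.2 and 119.8 to 65.2, 35.2 and 39.8, 2.47-fold (edgeR adjusted p = 0.025). Pdgfb, which recruits pericytes, and Plxnd1, a semaphorin receptor, fell 2.34-fold and 2.07-fold. Vegfc, a growth factor for lymphatic vessels, rose 2.14-fold and Ramp3, a co-receptor for adrenomedullin, 2.97-fold. Angpt2 had 18.1 ± 2.93 CPM in the Controls and 10.6 ± 5.11 in AML (SD, n = 3; edgeR adjusted p = 0.17), and Pgf was below the filter. All 6 calls were lost without Control 1 or without AML 3, and 5 of 6 without Control 3, where Cxcr4 still passed. With cluster 0 left out, 2 genes of this list passed, Pdgfb and Ramp3.

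In aerocytes 4 of 18 measured tip cell genes fell and 1 rose, where 3.18% of all genes passed (286 of 8982), 2.08% downward and 1.1% upward. Kdr, the main VEGF receptor, fell from 2278, 2054 and 2364 CPM in the Controls to 1266, 926 and 998 in AML, 2.10-fold (edgeR adjusted p = 0.0069). Nrp1, its co-receptor, fell 2.76-fold (edgeR adjusted p = 0.0011), Flt4, the receptor of Vegfc, 2.12-fold and Pdgfb 1.72-fold, while Ramp3 rose 2.59-fold. Kdr is also one of the markers that named the class. Flt1, another VEGF receptor, had 734 ± 185 and 639 ± 102 CPM (SD, n = 3; edgeR adjusted p = 0.70). Of these 5 calls Nrp1 alone held without AML 2 or without AML 3. Kdr in general capillary cells had 239 ± 24.4 and 199.5 ± 56.5 CPM (SD, n = 3; edgeR adjusted p = 0.50); the difference between the classes was not tested.

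In venous cells Pdgfb fell 3.35-fold and Ramp3 rose 3.47-fold, the 2 tip cell genes called of 20 measured, where 0.32% of all genes passed, 0.205% downward and 0.114% upward. Both calls were lost without Control 1, without Control 3 or without AML 3. In arterial cells 1 of 19 passed by edgeR, with 0.624% of all genes passing. This was Igfbp3, a binding protein of insulin-like growth factors, at 2.80, 3.50 and 2.34 CPM in the Controls and 92.2, 27.8 and 90.4 in AML, 21.2-fold (edgeR adjusted p = 0.0036). The Control values, from 21, 59 and 62 cells, are near the floor, so the size of the fold is uncertain. A count of 0 allowed up to 8.39 CPM in Control 1 and 7.01 in Control 3. Igfbp3 was also a leading gene of cluster 14, named smooth muscle and myofibroblast, and the source of its UMIs in arterial cells was not tested. The call held in 13 of 14 alternatives. It was lost with doublets kept before clustering, where the log2 change was 1.68 (edgeR adjusted p = 0.56).

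**Figure D4:**
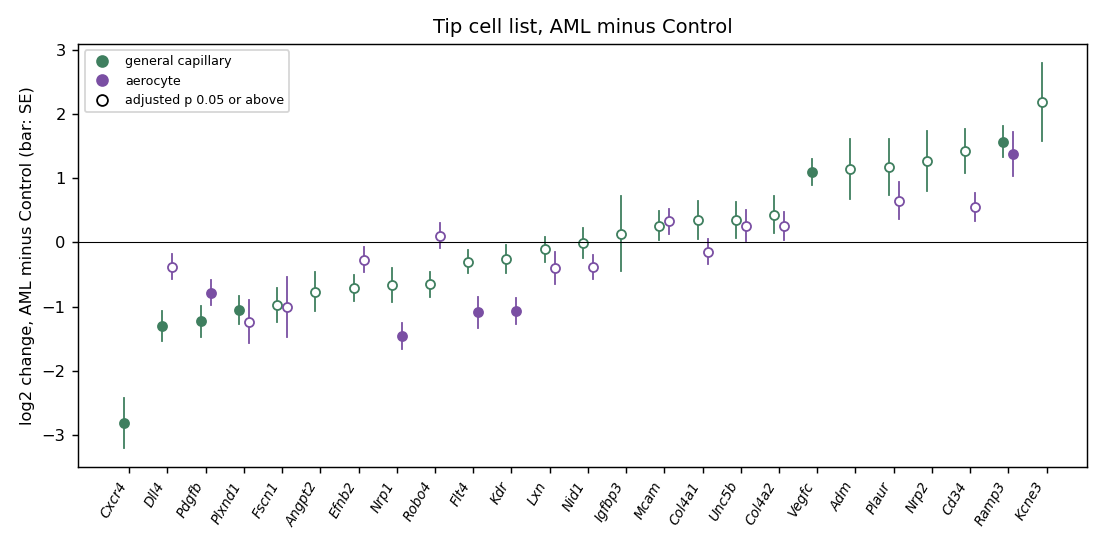
Log2 change, AML minus Control, with its SE, of the tip cell genes measured in general capillary cells, with the aerocyte value where measured. Filled points passed at an adjusted p of 0.05. In general capillary cells 4 genes lie below 0 and 2 above among the filled points, and in aerocytes 4 below and 1 above.

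Of the other lists in general capillary cells, 1 of 11 stalk and Notch response genes passed, Vwf, which rose 2.22-fold. Of 13 VEGF and hypoxia genes 2 passed, both upward, the lactate dehydrogenase gene Ldha at 2.29-fold and the hypoxia-responsive repressor Bhlhe40 at 3.79-fold. The median log2 change of this list was 0.66, beside -0.0002 over all genes. All 3 calls were lost without Control 1, without Control 3 or without AML 3. Of 17 alternatives, Bhlhe40 lost its call in 8, among them leaving out any library except AML 1, and leaving out cluster 0. Vwf lost its call in 5, the other two being without AML 2 and without cluster 0, and Ldha in 3. In aerocytes the median of the VEGF and hypoxia list was 0.62 with 0 genes past the threshold in edgeR and 7 of 11 at an unadjusted p under 0.05, while 3 passed in DESeq2.

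Cells that held Esm1 differed from those without it in many genes. In each library, general capillary cells thinned to 2000 UMIs were summed by the presence of an Esm1 UMI, 38 to 133 cells with and 804 to 2035 without, and compared within libraries. Of 7877 genes measured, 245 were higher and 255 lower by edgeR's quasi-likelihood test, 6.35% of all (3.11% higher and 3.24% lower). For 4 of the 7877 genes, 0.0508%, the difference itself differed between AML and Control libraries. The share of cells with Esm1 differed between clusters of the same library, as in AML 1 with 10.2% in cluster 0 and 1.37% in cluster 2. The contrast is therefore partly one between clusters. Slc45a4, a solute carrier, was 103.1 ± 57.1 CPM with Esm1 and 4.55 ± 2.98 without (SD, n = 6), 24.3-fold higher (edgeR adjusted p = 1.9e-54). Scgb3a1 was 9.44-fold, the polyamine transporter Atp13a3 5.94-fold, Ivns1abp 5.83-fold, Adgrg6 5.26-fold and the inhibin subunit gene Inhbb 4.65-fold higher. Cdc42ep3, Gda, Psen2 and the transcription factor Gata6 were 3.23-fold to 3.74-fold higher, and all 10 genes were higher in each of the 6 libraries.

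Vegfc was nearly absent from the Esm1 cells, at 3.52 ± 6.86 CPM with Esm1 and 83.0 ± 34.8 without (SD, n = 6), 22.3-fold lower (edgeR adjusted p = 1.34e-20). Ramp3 was 5.16-fold, Tcim 4.95-fold and H2-Eb1, a subunit of MHC class II, 4.71-fold lower, each in 6 of 6 libraries. Hbb-bs, a haemoglobin gene, was 12.0-fold lower, but single cells set its level. In Control 3 a single cell held 3566 Hbb-bs UMIs, and no cell of the AML libraries held more than 1.

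Of 20 measured tip cell genes 5 were higher and 5 lower in the Esm1 cells. Cxcr4 was 9.85-fold, Angpt2 3.35-fold, Dll4 3.11-fold, the ephrin gene Efnb2 2.25-fold and Flt4 2.10-fold higher. Dll4 reached 242.9 ± 75.0 CPM with Esm1 and 77.9 ± 39.8 without (SD, n = 6; edgeR adjusted p = 4.4e-32). Besides Vegfc and Ramp3, Pdgfb, Lxn and the collagen gene Col4a1 were lower, by 1.23-fold to 1.94-fold. The VEGF receptor Kdr did not pass, with a log2 difference of 0.021 ± 0.12 (SE). Of the tip cell genes called between the groups in general capillary cells, Dll4 and Cxcr4 were higher with Esm1 and lower in AML. Vegfc and Ramp3 were lower with Esm1 and higher in AML, while Pdgfb was lower in both. Plxnd1 was called between the groups but not in the split. Without cluster 0 neither Dll4 nor Cxcr4 passed between the groups. How the 2 comparisons relate was not tested.

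Of 11 stalk and Notch response genes, Aplnr among them, 5 were higher, Hey1 (2.16-fold) and Notch1 (1.99-fold) most, and 1 was lower, Hes1. Of 12 VEGF and hypoxia genes Vegfa was higher and Ldha and Ankrd37 were lower. Of 15 apelin signalling genes, Aplnr again among them, Foxo1 was higher and Prcp and Klf4 were lower. The median log2 difference was 0.29 for the tip cell list and 0.30 for the stalk list, beside -0.0098 over all genes. Aplnr itself was 35.1 ± 31.4 CPM with Esm1 and 59.4 ± 30.5 without, lower in 5 of 6 libraries; the co-detection counts above use the same cells.

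Markers of other cells were read in the same sums. Airway markers summed to 43.1 to 147.3 CPM with Esm1 and 38.7 to 309.5 without, and were higher with Esm1 in 3 of 6 libraries. Arterial markers, a list that holds Hey1 and Efnb2, summed to 829 to 2405 with Esm1 and 696 to 1465 without, and were higher in 6 of 6 libraries. Aerocyte markers were lower in 6 of 6. Their part in the result was not tested. In ciliated cells of cluster 19, which held more Esm1, Scgb3a1 had at most 4.05 CPM. In cluster 12, the airway cells of Control 3, Scgb3a1 was at 372.4 CPM beside Esm1 at 42.2.

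**Figure D5:**
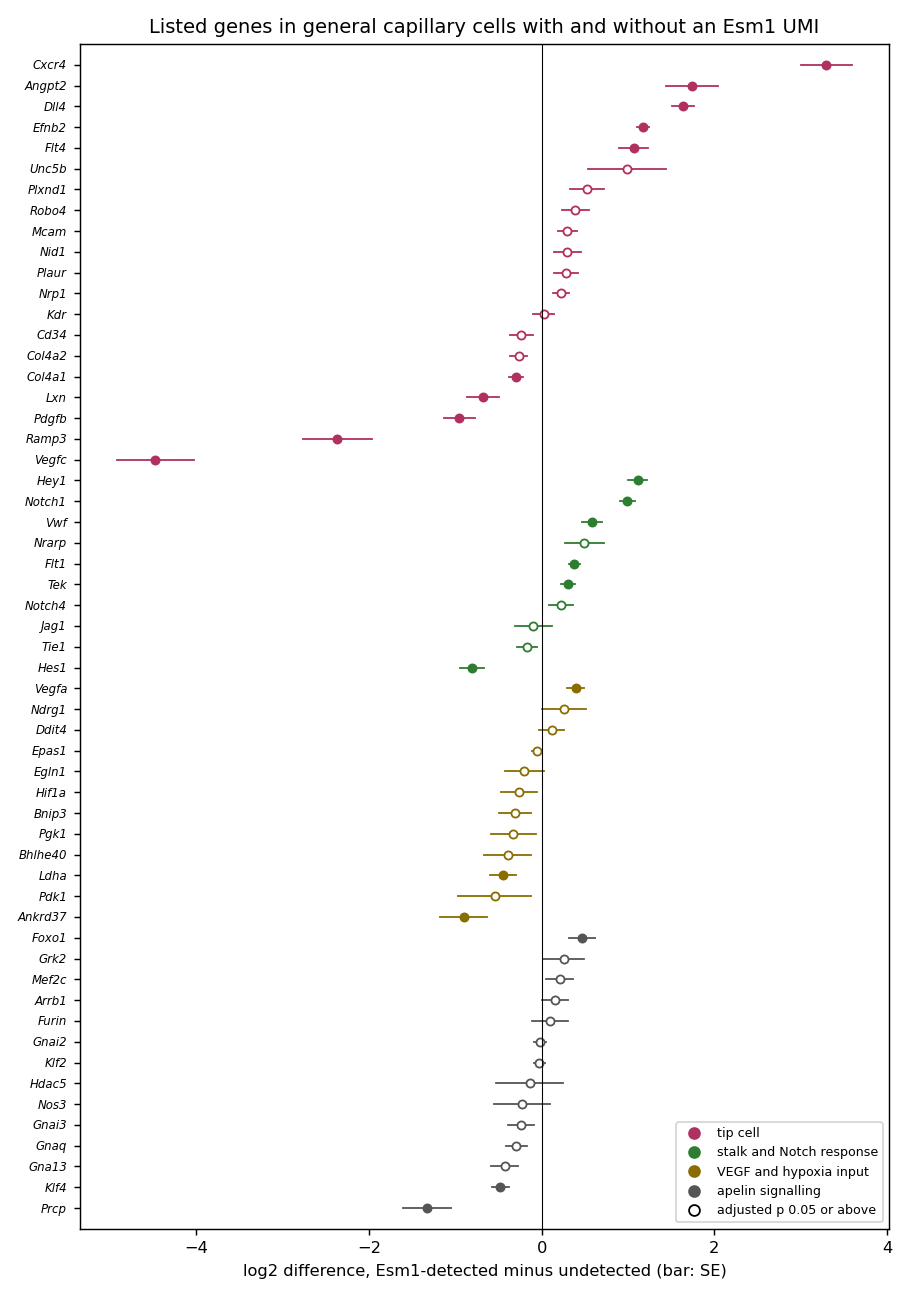
Log2 difference with its SE between general capillary cells with and without an Esm1 UMI, for the measured genes of 4 lists without the 3 members, filled where they passed at an adjusted p of 0.05. Cxcr4, Angpt2 and Dll4 lie farthest to the right of the tip cell genes, and Vegfc and Ramp3 farthest to the left.

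The same split by Aplnr gave few genes. With 41 to 254 cells with Aplnr per library, 14 of 8084 genes were higher and 16 lower, 0.371% of all (0.173% higher and 0.198% lower). The higher genes differed little: the sodium channel subunit Scn3b was 1.40-fold higher and Grrp1, Tspan8, Tmsb10, Glp1r, Plpp1 and Scn7a 1.15-fold to 1.26-fold. Lower genes included Atp13a3, at 8.26 ± 8.34 CPM with Aplnr and 59.4 ± 16.8 without (SD, n = 6), 9.88-fold (edgeR adjusted p = 4.24e-22). Thus Atp13a3 was higher in cells with Esm1 and lower in cells with Aplnr, each in 6 of 6 libraries. Mgll, Igfbp7 and Cxcl12 were 1.51-fold to 1.61-fold lower, Efnb2 1.21-fold lower, and Hbb-bs 14.8-fold lower with the same limit as above. None of 14 apelin signalling genes passed in edgeR. Cells with Apln were too few to split, with as few as 4 in a library.

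Over the 24 sums of 4 classes and 6 libraries, the genes most like each member in log2 level were taken among those with a mean of at least 10 CPM. The points share libraries, depth and class structure, so Pearson's r is a description. Csk (r = 0.96), Tmeff2 (0.96), Slc5a12 (0.95), Rap2a (0.95) and Tspan12 (0.95) were most like Apln. Glp1r (r = 0.90), Dnah8 (0.90), H2-Ab1 (0.89), H2-Eb1 (0.88) and Ncald (0.86) were most like Aplnr. Efnb2 (r = 0.92), Sema3g (0.89), Nck2 (0.87), Ldb2 (0.87) and Efna1 (0.87) were most like Esm1. Glp1r was also among the genes higher in cells with Aplnr, and Efnb2 among those higher in cells with Esm1. Between members r was -0.07 for Apln and Aplnr, -0.23 for Apln and Esm1 and 0.26 for Aplnr and Esm1.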

How the data were processed

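The 6 libraries were made by the authors with the 10x Single Cell 3' v3.1 kit, and the deposited values are raw UMI counts per gene and barcode on mm10. Cell Ranger is named as 6.0.1 per the file headers and as 7.0.0 per the submitters' processing notes, so its version is open. Counting of overlapping genes is not given in the sources used here. The members and lists were chosen with earlier results of these data known.

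Of 28516 barcodes, those with under 500 genes (3415) or over 15% mitochondrial UMIs (461) were left out, and the top Scrublet scores were removed as doublets, 0.8% per 1000 cells (895 cells), which left 23745. Counts were scaled to 10000 and logged, and 2000 variable genes, 30 principal components, the 15 nearest neighbours of each cell, a graph of shared neighbours (pairs sharing under 0.0667 of them dropped) and Leiden clustering at resolution 1.0 (scanpy 1.11.5, leidenalg 0.10.2, Python 3.11.15, seed 7) gave 27 clusters. Clusters took the class of a list of markers without Apln, Aplnr or Esm1. The scoring behind the names was set after the data were seen: a score of at least 1, 20 CPM (counts-per-million) added before fold changes, and at least 3 markers in 10% of cells. No annotation by the authors was used, so rebuilt names may differ from those of the study.

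UMIs were summed per library and class where each library had at least 20 cells, scaled by TMM, and tested with edgeR 4.0.16 (robust quasi-likelihood, filterByExpr, R 4.3.3) with Benjamini-Hochberg adjustment over all genes at 0.05. Splits by detection used library as a block and needed 10 cells per sum. Named genes are those of the lists that passed, with fixed exceptions, and in a split the 10 highest and 5 lowest with 1 sign in 6 libraries and at least 50 CPM. On simulated data, 100% of 4-fold and 64% of 2-fold changes were called in general capillary cells, with 5.20% of calls false. The shares were 98% and 52% in arterial cells and 90% and 51% in the Esm1 split. The simulation used a single dispersion for all genes and changed only genes above a floor of mean count. Real libraries differed more, as calls depended on single libraries, so these rates need not hold for them. Intervals are exact (Clopper-Pearson, 95%), and a 0 allows 3 counts. Alternatives are given in the closing section.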

Additional observations from a re-analysis of the deposited data

Results flagged for a closer look

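For 4 genes the difference between general capillary cells with and without an Esm1 UMI itself differed between AML and Control libraries by edgeR's interaction test, 0.0508% of 7877 genes (455 at an unadjusted p under 0.05). Nrgn, a calmodulin-binding protein gene, had a difference of log2 differences of 3.08 ± 0.63 (SE; adjusted p = 0.0025), with 23.2 CPM with Esm1 and 37.6 without in the Controls against 50.4 and 9.92 in AML. Ccn2, a matricellular protein gene, had 1.53 ± 0.34 (SE; adjusted p = 0.0145), with 123.5 and 57.9 in the Controls against 175.6 and 26.6 in AML. Sparcl1, another matricellular protein gene, had -0.85 ± 0.15 (SE; adjusted p = 6.78e-05), with 728.6 and 274.1 against 963.0 and 638.2. Timp3, an inhibitor of matrix proteases, had -0.99 ± 0.15 (SE; adjusted p = 4.47e-07), with 550.3 and 382.3 in the Controls against 1350 and 1774 in AML, higher with Esm1 in 3 of 3 Controls and in 0 of 3 AML libraries. Nrgn was higher with Esm1 in 0 of 3 Controls and 2 of 3 AML libraries. Under the other clustering seed Nrgn and the platelet marker Pf4 led a cluster whose best marker score was that of platelets. The source of the Nrgn UMIs was not tested. For the Aplnr split the same interaction test called 0 genes by edgeR, with 341 at an unadjusted p under 0.05. No other tool was run on it.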

How the results depend on the processing

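Each result was recomputed under the listed alternatives; the other clustering seed, the other fold pseudocount, the single clusters and the class without its Control-rich cluster 0 or its low-UMI cluster 4 were chosen after seeing the data. Over its 15 to 18 alternatives the log2 difference of a member, AML minus Control, ranged from -2.85 to -1.90 for Apln in aerocytes, -3.16 to -2.10 for Apln, -1.71 to -0.73 for Aplnr and -2.11 to -0.59 for Esm1 in general capillary cells, and -1.77 to -0.89 for Esm1 in arterial cells. That of Aplnr in venous cells ranged from -0.60 to 0.0014, the sign turning without Control 3. Those that moved by more than the spread between replicates were Apln in general capillary cells, at -3.07 without cluster 0 and -3.16 in cluster 4 alone, and Esm1, at -0.59 without cluster 0; the cause was not tested.

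Counts of genes called depended on single libraries. On leaving out 1 library they ran from 6 (without Control 1) to 1261 (without AML 1) in general capillary cells (343 with all libraries), from 47 (without AML 3) to 359 (without Control 1) in aerocytes (286), from 6 (without AML 2) to 140 (without AML 1) in arterial cells (37), from 0 (without AML 3) to 285 (without AML 1) in venous cells (28) and from 12 to 32 in the Aplnr split (30), all by edgeR. With no filter on low counts they were 807, 598, 186 and 338 in the 4 classes in that order. DESeq2 called 901 in general capillary and 105 in venous cells, 5 in the Aplnr split and 310 in the Esm1 split (500). Thinning to 1000 UMIs left 6 and 276 in the splits, where fewer UMIs enter. Doublets kept gave 23 in arterial cells, resolution 0.5 and another seed 11 each in venous cells, and leaving out cluster 0 gave 145 in general capillary cells; the cause of these changes was not tested. Of the recomputed values of members and counts, 142 kept their sign within the spread between replicates or, for counts, stayed within a fixed fold of the main count. Beyond that fold 25 counts were lower and 10 higher.

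Deviations of same-numbered libraries from their group means had correlations of -0.135 to 0.0553, and those of other pairs -0.0819 to 0.132. No pairing by number was seen, but with 3 libraries per group this check cannot exclude one. With the replicate number as a block, 58 genes were called in arterial cells, and 497, 244 and 25 in general capillary, aerocyte and venous cells. Low counts limit Apln outside aerocytes and all 3 genes in arterial and venous cells.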
